A study of Homo sapiens with 12 samples.

Results

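The genes described here are 34 genes of sterol and fatty acid synthesis and of their transcriptional control, taken by symbol from a table of 58302 genes and matched by gene identifier in a second table of 50868 genes. All 34 were found in both tables with the same coordinates, and all 34 passed the filter on low counts in both comparisons. They were ordered as 5 regulators, 18 enzymes of the sterol branch, the sterol carrier STARD4, and 10 enzymes of the fatty acid branch. Expression was measured by RNA sequencing in SW1990, an established line from a spleen metastasis of human pancreatic adenocarcinoma, after 24 h in medium without glucose. Cells labelled S371A and S55A carried PHGDH, the first enzyme of serine synthesis, with alanine in place of serine at that residue, and each mutant was sequenced beside its own wild-type PHGDH cells. The S371A table holds the group WT-1 and the S55A table the group WT-2. The 4 groups held 3 libraries each, 12 in all. The prefix r of the expressed form is not explained in the labels, and the labels give neither the promoter of the construct, nor the number of clones, nor the state of the cells' own PHGDH. The labels do not say whether the libraries of a group were grown as separate cultures. The p-values therefore reflect differences among libraries that could be technical only. All 12 libraries came from cells deprived of glucose, so no value here is a response to glucose.

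Cholesterol and fatty acids are both built from cytosolic acetyl-CoA. The transcription factors SREBP-1 and SREBP-2, encoded by SREBF1 and SREBF2, are held in the endoplasmic reticulum with their escort SCAP by INSIG1 and INSIG2 when sterols are plentiful, and travel to the Golgi for cleavage when sterols run short. SREBP-2 mainly raises genes of the sterol branch and SREBP-1c mainly those of the fatty acid branch, with NF-Y and SP1 as partner factors at many of these promoters. Pancreatic cancer cells often carry high lipogenic enzyme levels, with SCD and FASN among the best known.

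Total counts ranged from 13667033 to 19240270 per library, so that 3 counts corresponded to between 0.1547 and 0.2175 CPM (counts scaled to library size, with TMM factors), which covers counting error only. PHGDH was lower in both mutants than in their wild-type groups, with 196, 183 and 224 CPM in S371A against 470, 495 and 456 CPM in WT-1, and 364, 359 and 346 CPM in S55A against 738, 706 and 734 CPM in WT-2 (log2 fold changes of -1.24 ± 0.08 and -1.03 ± 0.05, with the SE). The amount of PHGDH transcript and the substitution therefore cannot be told apart in either comparison. The line's epithelial label was checked on EPCAM, CDH1, KRT8, KRT18, KRT19 and KRT7, whose summed level was 5465 to 6422 CPM in S371A and 4644 to 5080 CPM in WT-1, and 4181 to 4454 CPM in S55A and 2754 to 3116 CPM in WT-2. Of these 6 markers, 2 were called higher in S371A (EPCAM and KRT18) and 2 in S55A (KRT8 and KRT18). The log2 fold change was above 0 for 6 of 6 in S55A, and for 4 in S371A, where 2 lay below 0. Those were KRT7 (-0.04 ± 0.19) and CDH1 (-0.23 ± 0.09, groups not overlapping, edgeR adjusted p = 0.127, not called). Summed markers of fibroblasts were lower in S371A, at 10.3 to 12.7 CPM against 21.5 to 23.9 CPM in WT-1. Of the 6 listed, 2 were tested and 1 was called lower, PDGFRB, averaging 10.2 CPM in S371A and 21.7 CPM in WT-1. COL1A2, COL3A1, DCN and LUM were at 0. The same list summed to 14.9 to 26.9 CPM in S55A and 9.50 to 19.0 CPM in WT-2, with 0 called by edgeR. There 1 (COL1A1, higher) had an unadjusted p under 0.05, beside 4960 of all 15521 genes tested. Summed markers of leukocytes, endothelium, hepatocytes, adipocytes and acinar cells stayed at or under 8.66 CPM in every library; of these, PLIN1 was called lower in S371A, PRSS1 and ALB lower and SERPINA1 higher in S55A. In such bulk libraries fewer cells of a type and less RNA per cell cannot be told apart, and the part of these markers in the results below was not tested.

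Because sterol genes of the S55A comparison are set side by side below, upstream sequence of members called lower there is shown with its CCAAT letters, the motif of NF-Y, in capitals (ATTGG where the motif lies on the other strand). Of the 6 members called lower, 4 are shown: ELOVL6 held no CCAAT in its window, and no window was available for ACAT2. The motif was not limited to members called lower. LPCAT3, the member called higher in S55A, held matches at -105, -64 and -29 bases from its RefSeq start. The stretches are 150 bases each, 5′ to 3′, from RefSeq on GRCh38.p14, and end before both the RefSeq start and the 5′ end of the gene in the deposited tables.
HMGCS1, chr5:43313513-43313662, minus strand: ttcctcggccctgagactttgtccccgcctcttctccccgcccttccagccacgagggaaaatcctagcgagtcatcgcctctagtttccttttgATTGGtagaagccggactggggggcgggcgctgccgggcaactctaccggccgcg
IDI1, chr10:1049171-1049320, minus strand: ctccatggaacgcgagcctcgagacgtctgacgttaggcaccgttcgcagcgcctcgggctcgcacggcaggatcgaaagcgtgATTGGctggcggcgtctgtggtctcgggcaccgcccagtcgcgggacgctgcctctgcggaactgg
STARD4, chr5:111512591-111512740, minus strand: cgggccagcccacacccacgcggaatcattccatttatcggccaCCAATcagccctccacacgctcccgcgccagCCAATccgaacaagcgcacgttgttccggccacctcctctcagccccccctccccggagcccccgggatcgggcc
TM7SF2, chr11:65111695-65111844, plus strand: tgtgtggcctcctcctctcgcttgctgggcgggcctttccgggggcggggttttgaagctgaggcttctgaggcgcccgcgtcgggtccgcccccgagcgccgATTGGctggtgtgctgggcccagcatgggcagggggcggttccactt
Within the stretches shown, the match lay 155 bases before the RefSeq start in HMGCS1, 117 in IDI1 and 74 in TM7SF2. STARD4 held 2 matches, at 161 and 130 bases before its start. Outside the stretches shown, a further match lay 100 bases before the same start in HMGCS1 and 215 in IDI1. Another start of IDI1 had matches at 132, 129 and 87 bases. Counting from 250 bases before to 50 bases after each RefSeq start, on either strand, 23 of the 30 members with an entry (76.7%) held CCAAT, against 43% of the 10513 genes tested in the S371A comparison that had an entry and 39.7% of all 27305 genes of the table. By branch, CCAAT was present in 13 of 15 sterol genes, 7 of 9 fatty acid genes, 2 of 5 regulators and STARD4. The SP1 motif GGGCGG was present in 29 of 30 members (96.7%), against 76.6% of those tested genes. The E-box CACGTG was present in 4 of 30 members (13.3%; INSIG1, SCAP, LSS and SC5D), against 12.7%.

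The 9-letter sterol regulatory element TCACNCCAC was found in 1 member, SREBF2, the gene of SREBP-2 itself, against 1.41% of the tested genes. It lay 133 bases before the RefSeq start and stands in capitals here.
SREBF2, chr22:41832929-41833078, plus strand: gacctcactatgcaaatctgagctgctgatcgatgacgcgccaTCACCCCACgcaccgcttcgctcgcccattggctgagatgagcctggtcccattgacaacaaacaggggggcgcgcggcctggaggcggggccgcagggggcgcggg
A match in these windows is a run of letters and not a measured binding site, and a missing match says only that those letters are not in the window.

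On the deposited FPKM scale, which divides by gene length, the 10 enzymes of the fatty acid branch spanned nearly the whole range of the members. SCD, the desaturase that makes oleate, was the highest member in each of the 4 groups, and FASN, the fatty acid synthase, was second. SCD stood at 140.9 ± 20.4 FPKM in S55A and 154 ± 2.15 FPKM in WT-2, and FADS2, the delta-6 desaturase, at 1.3 ± 0.25 FPKM in S55A and 1.36 ± 0.34 FPKM in WT-2 (SD, n = 3 each). FADS2 was the lowest member in S55A and WT-1, MVK the lowest in S371A and INSIG2 the lowest in WT-2. CYP51A1, the lanosterol demethylase, was the highest of the sterol branch in S371A, WT-1 and S55A, and SQLE, squalene epoxidase, in WT-2. In WT-2 SQLE averaged 49.9 ± 6.90 and CYP51A1 47.5 ± 7.07 FPKM, closer than their SDs. In S55A CYP51A1 averaged 41.6 ± 3.41 and SQLE 39.8 ± 2.24 FPKM, also closer than their SDs. The gene lengths implied by the FPKM values were 1 to 3.5 times the merged exonic length of the members in GENCODE 29, so the order between genes rests on the lengths the authors used. For CYP51A1, 79.4% of the exonic bases also lie in another gene on the same strand, AC000120.2 or AC000120.3, and its count is uncertain to that extent.

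Set side by side across the tables, sterol branch levels were higher in both groups of the S55A experiment. The mean FPKM of S55A was above that of S371A for 18 of 18 sterol genes, with a median ratio of 1.46, and that of WT-2 was above WT-1 for 16 of 18, with a median ratio of 1.66. The fatty acid branch had median ratios of 1.17 for S55A over S371A and 1.10 for WT-2 over WT-1. Over all genes with the same coordinates and a mean of at least 1 FPKM in both groups, these median ratios were 0.9988 and 0.9957. MSMO1, the methyl sterol oxidase, averaged 38.02 FPKM in S55A and 14.2 FPKM in S371A, and 43.8 FPKM in WT-2 and 15.96 FPKM in WT-1. The tables were normalized separately, the lengths implied for the members differed by 0.85 to 1.10 times between them, and these ratios were not tested.

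**Figure D1:**
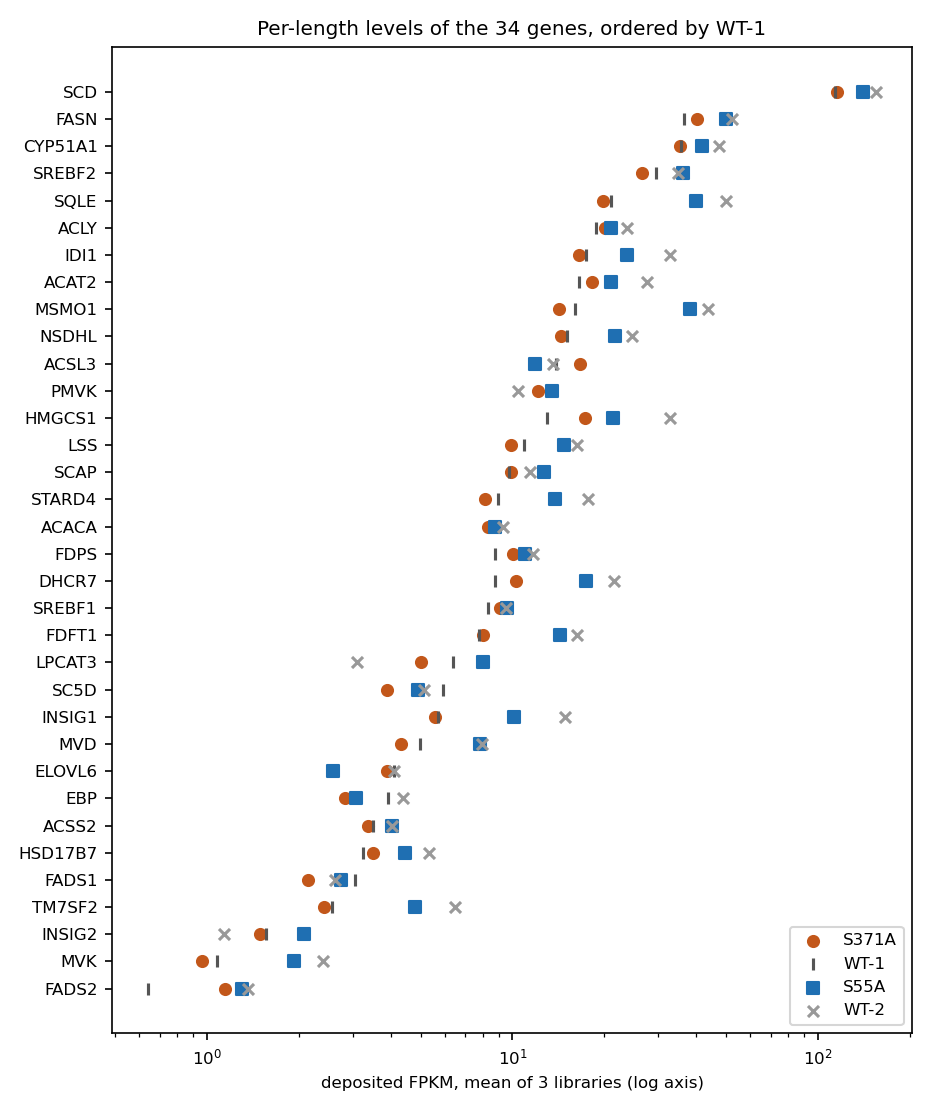
Deposited FPKM (log axis) of the 34 genes, each point the mean of 3 libraries of S371A, WT-1, S55A or WT-2, with genes ordered by WT-1. SCD and FASN are highest in every group, and most sterol genes, MSMO1 and DHCR7 among them, lie to the right in S55A and WT-2.

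Of the 34 members, LPCAT3 was the gene called in both mutants. Called means an adjusted p under 0.05 in edgeR's quasi-likelihood test with Benjamini-Hochberg adjustment over all genes tested. In S371A, 4 of 34 members were called (2 higher and 2 lower), against a background of 12.6% of the 16235 genes tested (7.05% higher and 5.53% lower), and all 4 were enzymes of the fatty acid branch. That share of the members, 11.8%, lies near the background. In S55A, 7 of 34 members were called (1 higher and 6 lower). That share, 20.6%, stood against a background of 16% of 15521 genes (8.97% higher and 7.06% lower). The share of members called lower was 17.6%. Libraries of the compared groups were fully separated for 15 members in S371A (6 higher and 9 lower), against 36.5% of all genes (18.2% higher and 18.3% lower), and for 12 in S55A (3 higher and 9 lower), against 38.2% of all genes (19.5% higher and 18.7% lower). Log2 fold changes of mutant over wild type ranged from -0.60 to 0.85 over the members in S371A and from -0.64 to 1.39 in S55A. The median over the 34 was -0.05 in S371A and -0.16 in S55A, beside -0.0075 and -0.0086 over all genes tested. The members together took 0.395% to 0.402% of the counts in S371A libraries and 0.390% to 0.401% in WT-1, and 0.470% to 0.547% in S55A and 0.576% to 0.589% in WT-2.

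**Figure D2:**
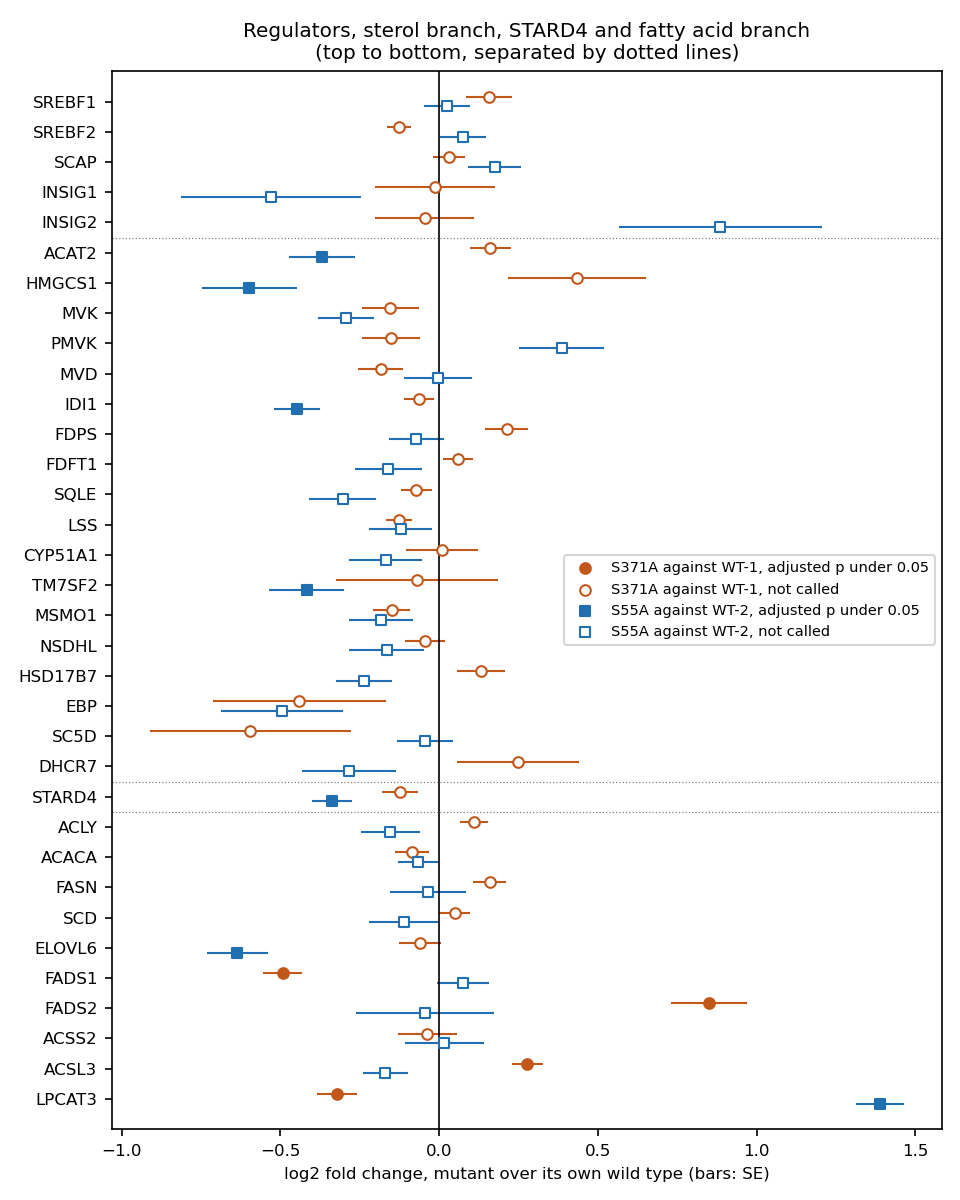
Log2 fold change of each mutant over its own wild type for the 34 genes (points, with SE bars; 3 libraries per group), filled where the adjusted p was under 0.05. In S371A (circles) the filled points are FADS1, FADS2, ACSL3 and LPCAT3, and in S55A (squares) 17 of 18 sterol branch points lie below 0 and LPCAT3 lies far to the right.

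None of the 5 regulators was called in either mutant in edgeR's test, with 1 at an unadjusted p under 0.05 in S371A (SREBF2) and 1 in S55A (INSIG2). Over all genes tested, 4776 of 16235 in S371A and 4960 of 15521 in S55A had an unadjusted p under 0.05. DESeq2 called 0 regulators in S371A and INSIG2 in S55A. SREBF2 had 358, 343 and 357 CPM in S371A against 389, 381 and 386 CPM in WT-1, so the groups did not overlap, and the log2 fold change of -0.13 ± 0.04 (SE) had an adjusted p = 0.0662 in edgeR's test, against 0.0402 with upper quartile factors and 0.0833 to 0.17 with 1 library left out. In the S55A experiment SREBF2 had 501, 502 and 439 CPM in S55A against 474, 430 and 466 CPM in WT-2, and the groups overlapped. SREBF1 had 140, 135 and 158 CPM in S371A against 134, 134 and 121 CPM in WT-1, without overlap but with an adjusted p = 0.207. It had 156, 154 and 146 CPM in S55A against 155, 135 and 158 CPM in WT-2. SCAP, the escort, lay between 104 and 110 CPM in S371A and between 99.3 and 110 CPM in WT-1. In S55A it had 140, 144 and 128 CPM, against 124, 109 and 132 CPM in WT-2.

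INSIG1 and INSIG2 had the largest standard errors of the 5 regulators in both mutants. INSIG1, itself a classical SREBP target, had 111, 74.2 and 61.8 CPM in S55A against 129, 139 and 88.4 CPM in WT-2, so that S55A replicate 1 lay within the wild-type range, and the log2 fold change was -0.53 ± 0.28 (edgeR adjusted p = 0.27). INSIG2 had 19.7, 19.3 and 17.98 CPM in S55A against 7.99, 6.67 and 16.1 CPM in WT-2. All 3 S55A libraries lay above WT-2, whose replicate 3 was apart from the other two. Its log2 fold change was 0.88 ± 0.32 with an edgeR adjusted p = 0.116 (DESeq2 gave 0.0132), and without WT-2 replicate 3 edgeR gave 0.00447, within a range of 0.00447 to 0.265 over the libraries left out in turn. In the S371A experiment INSIG1 had 38.7, 44.0 and 54.1 CPM in S371A against 56.9, 43.0 and 38.1 CPM in WT-1, and INSIG2 had 14.02, 10.7 and 16.2 CPM in S371A against 15.5, 13.5 and 13.3 CPM in WT-1. Both overlapped between these groups.

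In the sterol branch, most genes lay below wild type in S55A, where 4 of 18 were called lower (22.2%, against 7.06% of all genes) and 0 higher. The called genes were HMGCS1, IDI1, ACAT2 and TM7SF2. The log2 fold change was below 0 for 17 of 18 genes, with a median of -0.21, while 51.3% of all genes tested lay below 0. In S371A 0 of 18 were called by edgeR or DESeq2. In edgeR's test 5 of 18 had an unadjusted p under 0.05 (2 higher and 3 lower), beside 4776 of all 16235 genes tested. The log2 fold change was below 0 for 11 of 18, with a median of -0.07, while 51.4% of all genes tested lay below 0 there. Without S371A replicate 2, 1 sterol gene was called in edgeR's test.

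At the entry of the pathway, ACAT2, the cytosolic thiolase that joins acetyl-CoA units (ENSG00000120437, chr6:159760328-159779055), had 113, 115 and 88.6 CPM in S55A against 138, 128 and 143 CPM in WT-2. Every S55A library lay below every WT-2 library, and the log2 fold change was -0.37 ± 0.10 (edgeR adjusted p = 0.0458). Of its exonic bases, 52.3% lie opposite SOD2-OT1, SOD2 or TCP1, and whether the counting used strand is not given in the sources used here. SOD2 and TCP1 were themselves called lower in S55A (log2 fold changes of -0.42 ± 0.09 and -0.42 ± 0.07, adjusted p = 0.0174 and 0.00551), so reads of ACAT2 and of these neighbours cannot be told apart there. In S371A ACAT2 had 86.4, 93.0 and 94.0 CPM against 87.9, 78.9 and 77.8 CPM in WT-1, which overlapped.

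HMGCS1, the HMG-CoA synthase (ENSG00000112972, chr5:43289395-43313512), had 138, 169 and 138 CPM in S55A against 250, 246 and 178 CPM in WT-2. The groups did not overlap, although WT-2 replicate 3 lay close to S55A replicate 2, and the log2 fold change was -0.60 ± 0.15 (edgeR adjusted p = 0.0394). In S371A it had 104, 95.4 and 161 CPM against 84.9, 98.2 and 83.7 CPM in WT-1, where replicate 3 of S371A stood apart and the log2 fold change of 0.43 ± 0.22 was not called (adjusted p = 0.26). Of its exonic bases, 15% lie opposite AC114947.2, which had 0 CPM in every library of the S55A experiment.

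IDI1, the isopentenyl diphosphate isomerase (ENSG00000067064, chr10:1039908-1049170), gave the sterol branch its smallest adjusted p in S55A. It had 128, 124 and 117 CPM in S55A against 161, 183 and 161 CPM in WT-2, and the log2 fold change was -0.45 ± 0.07 (edgeR adjusted p = 0.00589). In S371A it had 82.0, 87.5 and 87.0 CPM against 91.2, 86.7 and 90.1 CPM in WT-1, and the groups overlapped. Its antisense neighbour IDI2-AS1, opposite 14.8% of its exonic bases, was at or under 0.593 CPM in all 12 libraries.

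TM7SF2, a sterol C14 reductase of the late pathway (ENSG00000149809, chr11:65111845-65116384), had 59.1, 66.3 and 47.9 CPM in S55A against 83.3, 74.9 and 73.4 CPM in WT-2. The groups did not overlap, and the log2 fold change was -0.42 ± 0.12 (edgeR adjusted p = 0.0461). It varied between libraries in the other experiment, with 33.2, 33.8 and 20.2 CPM in S371A and 26.9, 38.6 and 26.01 CPM in WT-1. STARD4, which carries cholesterol between membranes and is a classical SREBP-2 target (ENSG00000164211, chr5:111496033-111512590), had 204, 192 and 186 CPM in S55A against 239, 256 and 240 CPM in WT-2. Its log2 fold change was -0.34 ± 0.06 with an edgeR adjusted p = 0.00958. In S371A it had 116, 106 and 121 CPM against 124, 124 and 126 CPM in WT-1, also without overlap, but the log2 fold change of -0.12 ± 0.06 was not called (adjusted p = 0.196).

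Of the 6 genes called lower in S55A, the call of IDI1, STARD4 and the elongase ELOVL6 held whichever library was left out, with adjusted p up to 0.0241, 0.0427 and 0.0195. The calls of ACAT2, HMGCS1 and TM7SF2 lay close to the threshold. ACAT2 was no longer called without S55A replicate 1 or 2 or any 1 WT-2 library (adjusted p = 0.055 to 0.132), HMGCS1 without S55A replicate 1 or 3 or WT-2 replicate 1 or 2 (0.108 to 0.129), and TM7SF2 without S55A replicate 1 or 3 or any 1 WT-2 library (0.0637 to 0.14). The number of sterol genes called in S55A was 1 without S55A replicate 1 or WT-2 replicate 2, and 2 without S55A replicate 3 or WT-2 replicate 1.

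The other sterol genes did not pass the test in S55A. MVK, the mevalonate kinase, had 25.1, 23.7 and 21.2 CPM in S55A against 28.4, 27.99 and 29.3 CPM in WT-2 (log2 fold change -0.29 ± 0.09, edgeR adjusted p = 0.058, against 0.0435 with upper quartile factors and 0.079 to 0.154 with 1 library left out). PMVK, the next kinase of the pathway, was the only sterol gene above 0, with 16.2, 19.6 and 16.1 CPM in S55A against 15.0, 11.6 and 13.2 CPM in WT-2 and a log2 fold change of 0.39 ± 0.13 (adjusted p = 0.0862). SQLE, whose step is a known control point of the pathway, had 235, 246 and 213 CPM in S55A against 240, 310 and 307 CPM in WT-2. S55A replicate 2 lay above WT-2 replicate 1, and the log2 fold change was -0.30 ± 0.11 (edgeR adjusted p = 0.0902, and 0.0246 without WT-2 replicate 1, within 0.0246 to 0.233 over the libraries left out).

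Among the last enzymes of the branch, EBP, the sterol isomerase, had 13.8, 13.0 and 12.2 CPM in S55A against 15.0, 15.5 and 24.5 CPM in WT-2, where replicate 3 stood apart. DHCR7, which makes cholesterol from 7-dehydrocholesterol, had 144, 134 and 118 CPM in S55A against 181, 176 and 126 CPM in WT-2, and was called only without WT-2 replicate 3 (edgeR adjusted p = 0.033, within 0.033 to 0.484). In S371A, SC5D, the lathosterol desaturase, had 43.0, 43.6 and 44.9 CPM against 49.5, 100 and 49.1 CPM in WT-1. Its groups did not overlap, but WT-1 replicate 2 stood apart from the other wild-type libraries, and the log2 fold change of -0.60 ± 0.32 was not called. LSS, the lanosterol synthase, had 155, 166 and 162 CPM in S371A against 176, 178 and 173 CPM in WT-1 (log2 fold change -0.13 ± 0.04, adjusted p = 0.0866). FDPS, the farnesyl diphosphate synthase, had 93.7, 97.4 and 107 CPM in S371A against 91.4, 81.2 and 84.4 CPM in WT-1 (0.21 ± 0.07, adjusted p = 0.0879).

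**Figure D3:**
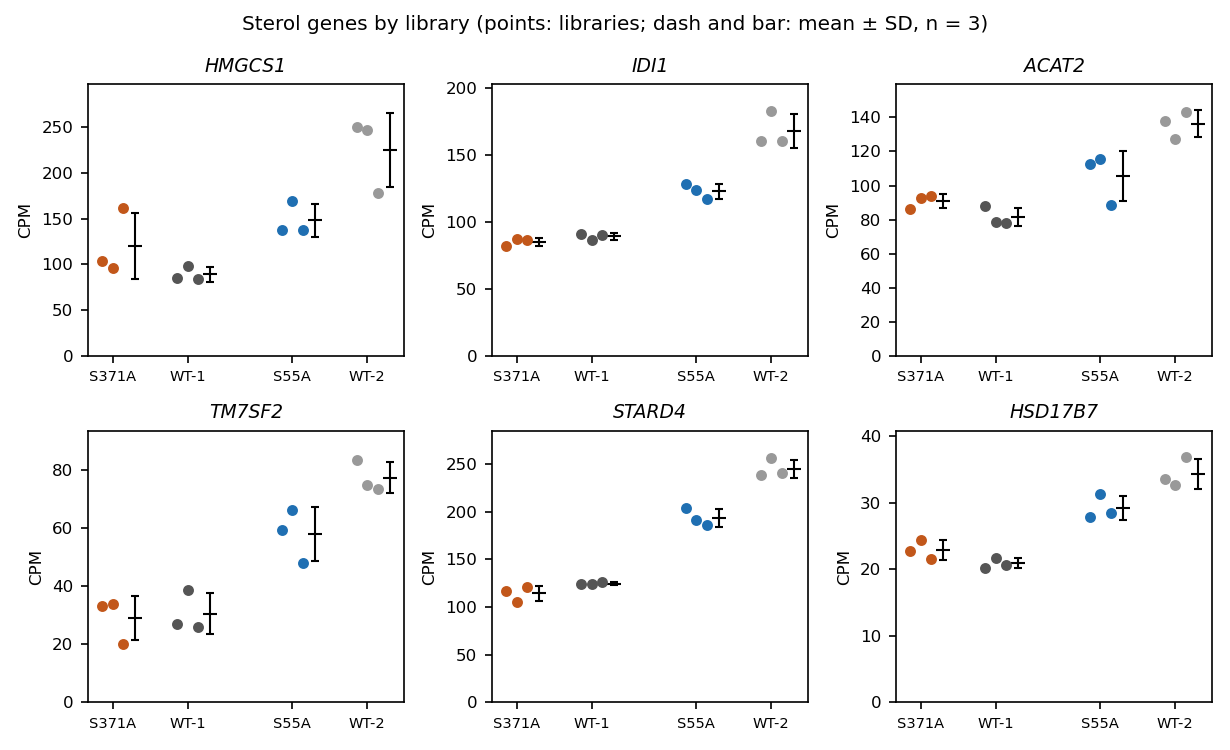
CPM per library (points) with mean ± SD (n = 3) for HMGCS1, IDI1, ACAT2, TM7SF2, STARD4 and HSD17B7 in S371A, WT-1, S55A and WT-2. Every S55A point lies below every WT-2 point in all 6 panels, while S371A and WT-1 overlap in all but STARD4.

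The fatty acid branch held the 4 calls of S371A (2 of 10 higher and 2 lower), against 7.05% of all genes higher and 5.53% lower, and in S55A 1 of 10 was called higher and 1 lower, against 8.97% and 7.06% of all genes. Without WT-1 replicate 1, 2 of the S371A calls were left. Both front-end desaturases, whose gene models overlap on opposite strands of chromosome 11, act on polyunsaturated fatty acids and were called there in opposite directions. FADS1, the delta-5 desaturase (ENSG00000149485, chr11:61799625-61829318), had 34.1, 36.5 and 35.3 CPM in S371A against 50.1, 47.1 and 51.9 CPM in WT-1, giving a log2 change of -0.49 ± 0.06 (edgeR adjusted p = 0.00447). FADS2, the delta-6 desaturase (ENSG00000134824, chr11:61792980-61867354), had 16.4, 19.5 and 17.1 CPM in S371A against 8.77, 11.2 and 9.55 CPM in WT-1, a log2 fold change of 0.85 ± 0.12 (adjusted p = 0.00723). Neither pair of groups overlapped, and both calls held whichever library was left out. By these coordinates FADS1 lies within the span of FADS2, and 4.79% of its exonic bases lie opposite exons of FADS2. Whether the counting used strand is not given. In the S55A experiment FADS1 had 44.1, 48.8 and 42.7 CPM in S55A against 44.9, 42.5 and 41.3 CPM in WT-2, and FADS2 had 21.0, 23.8 and 15.6 CPM in S55A against 18.5, 16.9 and 26.8 CPM in WT-2. Neither was called in S55A, and both overlapped.

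ACSL3, which activates long-chain fatty acids at the endoplasmic reticulum and on lipid droplets (ENSG00000123983, chr2:222860934-222944639), was higher in S371A, with 178, 176 and 171 CPM against 144, 137 and 152 CPM in WT-1. Its log2 fold change was 0.28 ± 0.05 (edgeR adjusted p = 0.0146, and 0.0522 without WT-1 replicate 1). In S55A it had 133, 121 and 123 CPM against 140, 151 and 132 CPM in WT-2, and was not called. ELOVL6, the elongase that extends palmitate to stearate (ENSG00000170522, chr4:110045846-110199199), was the fatty acid gene called lower in S55A. It had 30.0, 31.1 and 25.3 CPM in S55A against 44.1, 43.4 and 46.6 CPM in WT-2, a log2 fold change of -0.64 ± 0.10 (adjusted p = 0.00422). In S371A it had 42.2, 45.3 and 41.8 CPM against 44.1, 48.0 and 42.9 CPM in WT-1, which overlapped.

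LPCAT3, the acyltransferase that places polyunsaturated chains into phospholipids (ENSG00000111684, chr12:6976186-7018510), had the largest log2 fold change of the 34 genes in S55A. It had 68.5, 64.4 and 71.8 CPM in S55A against 26.6, 25.2 and 26.3 CPM in WT-2, giving a log2 change of 1.39 ± 0.08 (edgeR adjusted p = 8.31e-05), and the call held whichever library was left out. In S371A it went the other way, with 41.8, 45.4 and 41.8 CPM against 52.3, 57.0 and 51.9 CPM in WT-1 and a log2 fold change of -0.32 ± 0.06 (adjusted p = 0.0206). That call was lost without S371A replicate 1 or 3 or any 1 WT-1 library, at adjusted p = 0.0501 to 0.0664. Of the exonic bases of LPCAT3, 65.6% lie opposite EMG1, a ribosome biogenesis gene on the other strand. EMG1 had 33.8, 32.8 and 28.4 CPM in S55A against 28.1, 24.5 and 29.3 CPM in WT-2, overlapping groups, and 21.5, 19.4 and 24.6 CPM in S371A against 26.4, 25.1 and 24.3 CPM in WT-1, also overlapping. EMG1 was not called in either mutant in edgeR's test. Its log2 fold change was -0.21 ± 0.10 in S371A (adjusted p = 0.205) and 0.21 ± 0.10 in S55A (adjusted p = 0.199), with the signs of the LPCAT3 changes. Whether the counting used strand is not given, so reads of LPCAT3 and EMG1 on the shared bases cannot be told apart.

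FASN, SCD, ACLY, ACACA and ACSS2 did not pass the test in either mutant. FASN had 553, 499 and 552 CPM in S371A against 490, 482 and 464 CPM in WT-1. These groups did not overlap and differed by 0.16 ± 0.05 on the log2 scale (edgeR adjusted p = 0.0897, and 0.0434 without S371A replicate 2, within 0.0434 to 0.239). It had 688, 688 and 531 CPM in S55A against 684, 572 and 697 CPM in WT-2. SCD had 834, 834 and 621 CPM in S55A against 829, 807 and 834 CPM in WT-2, so that S55A replicate 3 alone was low. ACLY, which makes cytosolic acetyl-CoA from citrate, had 210, 202 and 167 CPM in S55A against 225, 200 and 221 CPM in WT-2, again lowest in S55A replicate 3. In S371A ACLY had 179, 187 and 186 CPM against 166, 178 and 168 CPM in WT-1, a log2 fold change of 0.11 ± 0.04 that was not called. For ACACA, the acetyl-CoA carboxylase, and ACSS2, which makes acetyl-CoA from acetate, the groups overlapped in both experiments.

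**Figure D4:**
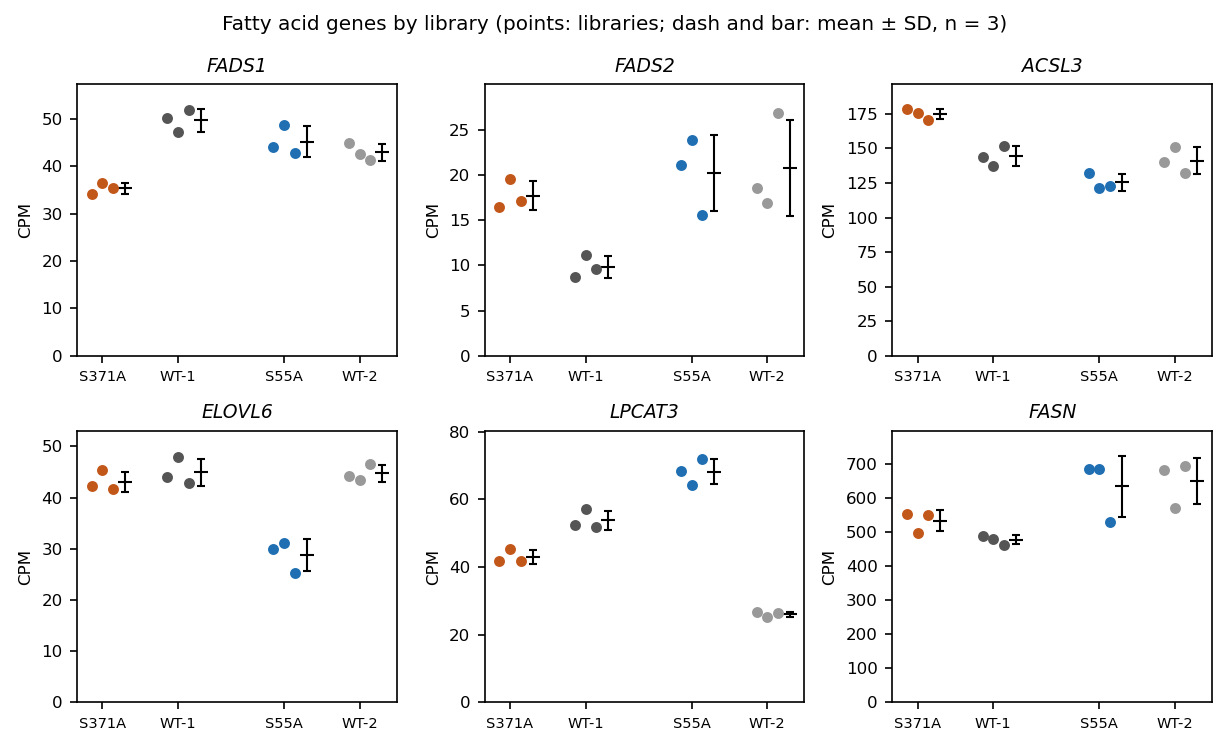
CPM per library (points) with mean ± SD (n = 3) for FADS1, FADS2, ACSL3, ELOVL6, LPCAT3 and FASN in S371A, WT-1, S55A and WT-2. FADS1 and FADS2 part in opposite directions between S371A and WT-1, ELOVL6 is lower in S55A than in WT-2, and LPCAT3 is lower in S371A and higher in S55A than in their wild types.

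Set against each other, the sterol branch had the lower median change relative to wild type in both mutants, by a small amount that moved with single libraries. The median log2 fold change was -0.21 in the sterol branch and -0.06 in the fatty acid branch in S55A, a difference of -0.15, and -0.07 and 0.0057 in S371A, a difference of -0.07. With 1 library left out, the difference ran from -0.21 to -0.095 in S55A (-0.095 without WT-2 replicate 2) and from -0.11 to -0.031 in S371A (-0.11 without S371A replicate 3, -0.045 without WT-1 replicate 3 and -0.031 without S371A replicate 2). The fatty acid median turned to 0.052 in S55A without S55A replicate 3, and in S371A to -0.047 without S371A replicate 2 and -0.022 without WT-1 replicate 3. The sterol median in S55A ran from -0.26 without S55A replicate 2 to -0.15 without S55A replicate 3. Per library, the mean log2 CPM of the sterol branch relative to its wild-type mean was -0.17, -0.12 and -0.37 in S55A against 0.015, -0.00083 and -0.014 in WT-2. All 3 S55A libraries lay below WT-2, replicate 3 most. The fatty acid branch followed replicate 3: without LPCAT3, its mean was -0.04, -0.02 and -0.32 in S55A against 0.019, -0.08 and 0.063 in WT-2. The gap between the branches, sterol minus fatty acid, was -0.27, -0.23 and -0.23 in S55A against -0.0049, 0.078 and -0.07 in WT-2. Without LPCAT3 it was -0.13, -0.099 and -0.05 in S55A against -0.0035, 0.081 and -0.08 in WT-2, and the groups overlapped. In S371A the gap was -0.060, -0.16 and -0.037 against -0.012, 0.053 and -0.042 in WT-1, and the groups overlapped, while without LPCAT3 it was -0.10, -0.20 and -0.079 against -0.014, 0.059 and -0.045 in WT-1, without overlap. Leaving out LPCAT3 was chosen after its values were seen, and it decides in both mutants whether the groups overlap. These branch means are descriptions over genes that share each library and carry no test.

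**Figure D5:**
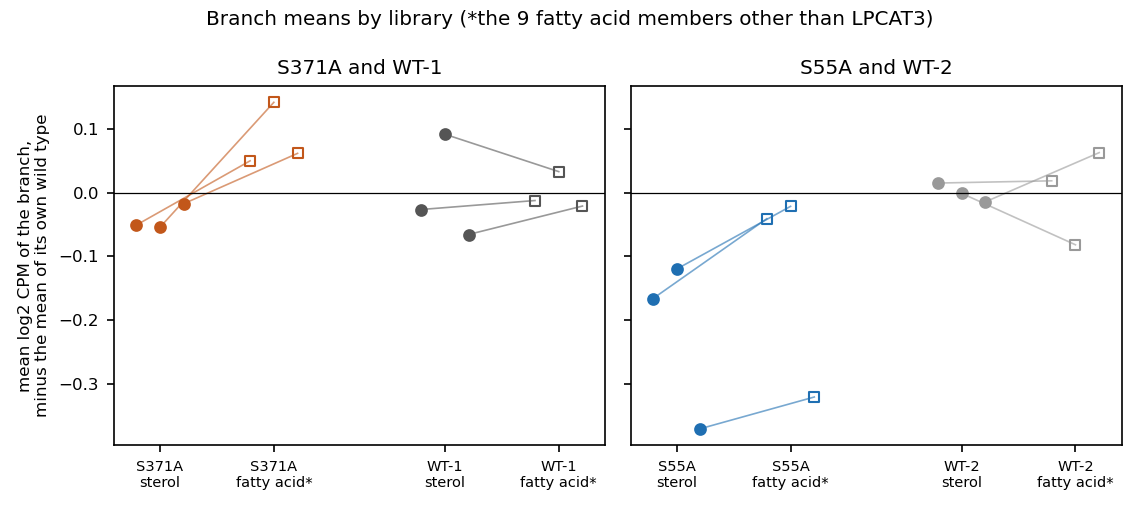
Mean log2 CPM per library of the 18 sterol genes (filled circles) and of the 9 fatty acid genes other than LPCAT3 (open squares), each minus the mean of its own wild-type group; a line joins the values of 1 library. The 3 S55A libraries lie below 0 for the sterol branch, at -0.17, -0.12 and -0.37, and S55A replicate 3 is lowest in both branches.

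The effects of S55A and S371A were compared directly as a difference of log2 fold changes over the 12 libraries. Of the 34 members, 9 were called (2 higher and 7 lower in S55A than in S371A), against a background of 12.5% of 16666 genes (6.1% higher and 6.43% lower). The difference was below 0 for 23 of 34 members and for 50.2% of all genes. In the sterol branch 4 of 18 were called, all lower: HMGCS1 by -1.04 ± 0.28 (edgeR adjusted p = 0.0409), ACAT2 by -0.53 ± 0.13 (0.0223), IDI1 by -0.39 ± 0.09 (0.0133) and HSD17B7, a sterol 3-ketoreductase, by -0.37 ± 0.11 (0.0494). HSD17B7 (ENSG00000132196, chr1:162790702-162812817) had 27.8, 31.3 and 28.5 CPM in S55A against 33.6, 32.6 and 36.9 CPM in WT-2, and 22.8, 24.4 and 21.5 CPM in S371A against 20.3, 21.8 and 20.7 CPM in WT-1. It was called in neither mutant alone, and 14.2% of its 50-base windows recur elsewhere, chiefly in the pseudogene HSD17B7P2. HSD17B7P2 was itself called higher in S371A (log2 fold change 0.43 ± 0.10, edgeR adjusted p = 0.0352) and had a log2 fold change of -0.28 ± 0.11 in S55A (adjusted p = 0.103, not called), and reads of the shared windows cannot be assigned to either gene here. In the fatty acid branch 5 of 10 were called: LPCAT3 by 1.71 ± 0.09 (adjusted p = 1.03e-06) and FADS1 by 0.56 ± 0.10 (0.00311) in the positive direction, and FADS2 by -0.90 ± 0.27 (0.04995), ELOVL6 by -0.58 ± 0.12 (0.00767) and ACSL3 by -0.45 ± 0.09 (0.00615) in the negative. Neither STARD4 nor any regulator was called. The sterol gene PMVK differed in the positive direction, by 0.53 ± 0.16, and was not called (edgeR adjusted p = 0.0538). DESeq2 called it (0.0396), as did edgeR without S55A replicate 3 (0.0437) or WT-2 replicate 1 (0.0334). The calls of LPCAT3, FADS1, ELOVL6, ACSL3 and IDI1 held in all 12 fits with 1 library left out. FADS2 and HSD17B7 each lost the call in 10 of these 12 fits (adjusted p up to 0.122 and 0.132) and with RLE factors, with upper quartile factors and without a filter, HMGCS1 lost it in 9 (up to 0.101) and without a filter, and ACAT2 in 6 (up to 0.0668). Without WT-1 replicate 2 or 3, 5 members and 1 sterol gene were called, and 2 sterol genes were called without S371A replicate 1 or 2, WT-1 replicate 1, S55A replicate 1, or WT-2 replicate 2 or 3. The median difference was -0.20 over the sterol branch and -0.18 over the fatty acid branch, beside -0.0030 over all genes. Without S55A replicate 3 these medians were -0.087 and -0.044. Their difference, -0.02, ranged from -0.079 to 0.058 with 1 library left out, and was above 0 without S371A replicate 3, S55A replicate 1 or 2, or WT-2 replicate 2. Each mutant belonged to 1 experiment, so mutant and experiment cannot be told apart.

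Genes around the members were read from 10 lists of pathway genes. Over all genes tested, 12.6% were called in S371A (7.05% higher and 5.53% lower) and 16% in S55A (8.97% higher and 7.06% lower). Each list count below is to be read beside these shares, and no list was tested as a set. Among 9 genes of SREBP processing and degradation, SEC24D, a cargo subunit of COPII vesicles, which carry SCAP to the Golgi, was higher in both mutants. It had 177, 192 and 175 CPM in S371A against 128, 119 and 121 CPM in WT-1 (log2 fold change 0.56 ± 0.05, edgeR adjusted p = 0.00164), and 182, 191 and 193 CPM in S55A against 132, 119 and 134 CPM in WT-2 (0.56 ± 0.07, adjusted p = 0.00173). ERLIN2, which takes part in the degradation of sterol-regulated proteins, was called lower in S371A (-0.28 ± 0.04). Of the SREBP cofactors, 0 of 5 were called by edgeR in S371A, and 1 of 5 in S55A, CREB1 (0.36 ± 0.11, higher). In S371A 2 of the 5 had an unadjusted p under 0.05, beside 4776 of all 16235 genes tested.

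Among 11 genes of cholesterol uptake, storage, efflux and liver X receptors, 2 were higher and 2 lower in S371A, and 3 were higher and 0 lower in S55A. Of all genes tested, 12.6% were called in S371A and 16% in S55A. The oxysterol-binding protein gene OSBP was higher in both, by 0.26 ± 0.04 in S371A and 0.33 ± 0.05 in S55A on the log2 scale, as was the liver X receptor gene NR1H2, by 0.32 ± 0.07 and 0.37 ± 0.08. Of 8 genes of the isoprenoid branch, FNTB was higher in S371A (0.67 ± 0.15), and DHDDS was higher (0.43 ± 0.08) and PDSS1 lower (-0.63 ± 0.12) in S55A. For FNTB, 40.1% of the transcript windows also lie in the readthrough gene CHURC1-FNTB.

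Among 7 genes that supply acetyl-CoA and NADPH, ACSS1, the mitochondrial acetate-activating enzyme, was called in both mutants in opposite directions. It had 14.9, 14.1 and 13.8 CPM in S371A against 18.3, 19.0 and 17.1 CPM in WT-1 (log2 fold change -0.35 ± 0.08), and 15.0, 16.5 and 14.002 CPM in S55A against 7.32, 7.98 and 7.11 CPM in WT-2 (1.02 ± 0.12). Malic enzyme ME1 was called higher in both, by 0.33 ± 0.06 in S55A, and IDH1 was lower in S371A (-0.46 ± 0.06). Of 12 tested genes of other fatty acid synthesis, elongation and desaturation, 0 rose and 3 fell in S371A, ACACB (-0.29 ± 0.06) and the desaturase SCD5 (-0.30 ± 0.07) among them, and 0 were called by edgeR in S55A, where 0 had an unadjusted p under 0.05. Of the genes of fatty acid activation, 1 of 7 was called in S371A, higher, and in S55A ACSF2 rose (0.74 ± 0.11) and FABP5 fell (-0.59 ± 0.12) of 6 tested.

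In glycerolipid synthesis, 2 of 13 tested genes rose in each mutant and 0 fell, while 12.6% of all genes were called in S371A and 16% in S55A. The called genes were GPAT3 (0.70 ± 0.07) and LPCAT1 (0.40 ± 0.08) in S371A, and AGPAT2 (0.44 ± 0.10) and LPIN2 (0.23 ± 0.06) in S55A. In fatty acid oxidation, 0 of 15 genes rose and 2 fell in S371A, the carnitine carrier SLC25A20 (-0.60 ± 0.13) and CPT1B (-0.50 ± 0.13). In S55A 4 of 15 rose, PPARD (0.47 ± 0.11) among them, and CPT1B fell (-0.94 ± 0.10). For CPT1B, 62.4% of the transcript windows also lie in the readthrough gene CHKB-CPT1B. Of the 5 tested AMPK subunit genes, whose kinase restrains both branches when energy is short, 0 were called by edgeR in either mutant and 0 had an unadjusted p under 0.05, and their log2 fold changes ranged from -0.19 to 0.09 in S371A and from -0.20 to 0.07 in S55A.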

How the data were processed

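Per the submitters' processing notes, edgeR, StringTie 1.3.0, HISAT2 2.0.4 and CASAVA were used, with the builds GRCh38 and mm10; the role of each is not stated, and the coordinates are human. The deposited tables, 1 per mutant with its wild type, hold whole-number counts and FPKM values per gene, per the file headers; counting step, annotation release and use of strand: not given in the sources used here. From the counts, genes were filtered with filterByExpr, scaled with TMM factors and tested with edgeR 4.0.16 (R 4.3.3; robust quasi-likelihood, Benjamini-Hochberg over all genes, 0.05), each mutant against its own wild type, and the difference of effects over 12 libraries and shared gene identifiers. The SE is the log2 fold change divided by the root of F. Branch means use log2 CPM with a prior count of 2. Members were listed with their roles, and values per library are given for the regulators, for called members and for further members chosen after their values were seen; of each pathway list, up to 2 called genes with the largest change, averaging 5 CPM or more, are named with values, and other named genes were chosen after their values were seen. The members, their branches and the pathway lists were chosen with earlier results of these data known. Overlap was measured on GENCODE 29, where 34 members were found, 32 with the same coordinates. Libraries of a group differed by more than counting noise (chi-square per gene of 10.5 to 19.9) and correlated with a Spearman rho of 0.983 to 0.9887 across genes. Alternatives were DESeq2 1.42.0, scaling by RLE or by upper quartiles, no filter, 1 CPM in 3 libraries, limma-trend (limma 3.58.1) on the deposited FPKM plus 1 or 0.1, the replicate number as a block, each library left out, and other branch memberships. Column numbers were read as replicate numbers. The fit was checked on simulated data.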

Additional observations from a re-analysis of the deposited data

Results flagged for a closer look

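For 9 of the 34 genes the S55A effect differed from the S371A effect in edgeR's test of the difference itself, on the log2 scale as S55A minus S371A. The difference was -1.04 for HMGCS1, -0.53 for ACAT2, -0.39 for IDI1 and -0.37 for HSD17B7 in the sterol branch. In the fatty acid branch it was 1.71 for LPCAT3, 0.56 for FADS1, -0.90 for FADS2, -0.58 for ELOVL6 and -0.45 for ACSL3. LPCAT3 was called in both mutants with opposite signs, at 1.39 in S55A and -0.32 in S371A. Of these calls, those of LPCAT3, FADS1, ELOVL6, ACSL3 and IDI1 held in 12 of 12 fits with 1 library left out and in 6 of 6 other settings. FADS2 and HSD17B7 lost theirs in 10 of 12 and 4 of 6, HMGCS1 in 9 and 2, and ACAT2 in 6 and 1. HSD17B7 was called in neither mutant alone, at -0.24 in S55A and 0.13 in S371A. For HMGCS1, S371A replicate 3 stood at 161 CPM, apart from 104 and 95.4 CPM in the other S371A libraries.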

How the results depend on the processing

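Of 1018 alternative values of the named members, 919 kept direction and side of the threshold, 71 lost the call, 12 gained one and 16 turned the sign, 0 of these last in a member called in that comparison. The numbers of called members stayed within 1.5 times their value, except with the replicate block, without a filter and with libraries left out. With the replicate block, 784 genes were called in S371A, 1632 in S55A and 1098 in the difference, where 5 members and 1 sterol gene were called; replicate numbers are not taken as pairing libraries, since the deviations of same-numbered libraries correlated at -0.0851 to -0.00289 across genes. Without a filter, 2 sterol genes were called in the difference. With 1 library left out, the genes called ranged from 917 to 1576 in S371A and from 1344 to 2491 in S55A. Members called ranged from 2 to 6 in S371A, 4 to 7 in S55A and 5 to 8 in the difference, sterol genes from 0 to 1, 1 to 3 and 1 to 3, and fatty acid genes in S371A from 2 to 5. Among the 67 results of named members, some log2 fold changes changed sign with a library left out. In S371A these were SCAP (-0.0066 to 0.065), INSIG1 (-0.15 to 0.17), INSIG2 (-0.19 to 0.10) and TM7SF2 (-0.19 to 0.14). In S55A they were SREBF1 (-0.0404 to 0.068, and -0.000161 with upper quartile factors), FASN (-0.12 to 0.0824), SCD (-0.18 to 0.0206) and FADS2 (-0.18 to 0.19). Other results were not listed, MVD in S55A (-0.0028) and CYP51A1 in S371A (0.0089) among them. The cause was not tested. Sterol minus fatty acid median without LPCAT3, an alternative chosen after seeing the data, was -0.11 in S371A and -0.14 in S55A.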

Other observations

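Several oxidation and transport genes outside the 34 were called in S55A beyond those taken by the naming rule, and were chosen here after their values were seen. CPT1A, the carnitine palmitoyltransferase of the outer mitochondrial membrane, averaged 82.8 CPM in S55A and 68.1 CPM in WT-2 (log2 fold change 0.28 ± 0.07, edgeR adjusted p = 0.0231). ACADVL, the very long chain acyl-CoA dehydrogenase, averaged 156 CPM in S55A and 125 CPM in WT-2 (0.33 ± 0.06, adjusted p = 0.0122). PPARGC1A, a coactivator of oxidative genes, averaged 4.96 CPM in S55A and 2.13 CPM in WT-2 (1.22 ± 0.19, adjusted p = 0.00534). The sterol exporter gene ABCG1 averaged 6.05 CPM in S55A and 3.10 CPM in WT-2 (0.96 ± 0.18, adjusted p = 0.0105). In S371A the scavenger receptor gene SCARB1 averaged 47.7 CPM, against 56.2 CPM in WT-1 (-0.24 ± 0.05, adjusted p = 0.0258), and the lysosomal lipase gene LIPA 76.9 CPM, against 91.2 CPM in WT-1 (-0.25 ± 0.06, adjusted p = 0.0353). ACSL5, which activates fatty acids, averaged 1.82 CPM in S371A and 0.293 CPM in WT-1. At the low WT-1 level a few counts decide the value.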
